A study of Drosophila melanogaster with 2 samples.

Results

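This account covers 9 paired-class homeobox genes of Drosophila melanogaster, the relatives otp, hbn, Rx, Vsx1, OdsH, unc-4, Pph13, PHDP and Drgx of the gene al. They were taken by name, and they are 9 of 13968 protein-coding genes on the 7 chromosome arms. The measurements are peaks of chromatin immunoprecipitation followed by sequencing (ChIP-seq) of Aristaless, the product of al. Embryos aged 0 to 24 h came from a transgenic strain in which al is fused to eGFP, and an antibody against GFP pulled the fusion protein down. All samples form 1 group of 2 biological replicates of whole embryos, both carrying the fusion. The labels give neither the driver of the fusion nor an untagged group, so the data hold no contrast between conditions and no test was made. A peak was counted at a gene when its summit lay inside the gene or within 20 kb of either end. By this rule 15 of the 3848 peaks of the series' thresholded list lay at the 9 genes. That list, made from both replicates, keeps peaks with an irreproducible discovery rate (IDR) of at most 0.01, a measure of how badly a peak's rank repeats. The series also has a second, conservative thresholded list of 3493 peaks and ranked lists without a threshold, and each replicate has a thresholded and a ranked list of its own. Signal is the authors' enrichment value for a peak, and neither its scaling nor the read depth behind it is known.

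Paired-class homeodomain proteins are transcription factors that bind DNA through a homeodomain whose core site is TAAT, and many of them bind palindromes of that site as dimers. In flies several of them pattern the brain, the eyes and the ends of the appendages. Members of the family often lie beside each other in the genome, as the products of duplications. The gene otp is known from the nervous system and hindgut, hbn and Rx from the embryonic brain, and Vsx1 from the developing optic lobe. Pph13 is known for its part in photoreceptor differentiation, unc-4 for its part in neurons, and OdsH, a duplicate of unc-4, for hybrid male sterility. Drgx is named after its mouse relative, which acts in sensory neurons of the dorsal root ganglia.

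The sequences at the summits of 5 of the peaks are shown so that their motifs can be read in place. They are the strongest peaks at Pph13 and Drgx, and the peaks inside Vsx1 and OdsH. Each runs 5' to 3' on the plus strand of dm6 and covers 100 bp on each side of the summit, except that 49 bases of annotated UTR were left out at Pph13. They do not stand for all 15 peaks, since the otp peak, stronger than that at Pph13, and 1 of the peaks shared by Rx and hbn are rich in GC and hold no TAAT. Capitals mark the homeodomain site TAAT on either strand and the GAGA factor site GAGAG on either strand.
Pph13 locus, promoter of cold, chr2L:574356-574507: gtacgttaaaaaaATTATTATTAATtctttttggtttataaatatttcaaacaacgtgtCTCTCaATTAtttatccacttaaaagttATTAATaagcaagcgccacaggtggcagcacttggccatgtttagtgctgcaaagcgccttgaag
Drgx locus, intron of for, chr2L:3655736-3655936: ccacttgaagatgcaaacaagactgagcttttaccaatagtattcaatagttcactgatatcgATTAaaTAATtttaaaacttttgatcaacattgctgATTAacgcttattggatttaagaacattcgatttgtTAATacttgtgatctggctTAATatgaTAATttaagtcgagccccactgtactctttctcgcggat
Drgx locus, promoter of CG2816, chr2L:3703347-3703547: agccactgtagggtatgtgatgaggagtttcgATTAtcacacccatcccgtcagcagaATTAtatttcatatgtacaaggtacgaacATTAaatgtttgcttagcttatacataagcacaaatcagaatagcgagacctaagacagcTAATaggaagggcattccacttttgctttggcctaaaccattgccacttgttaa
Vsx1 locus, intron of Vsx1, chrX:5604281-5604481: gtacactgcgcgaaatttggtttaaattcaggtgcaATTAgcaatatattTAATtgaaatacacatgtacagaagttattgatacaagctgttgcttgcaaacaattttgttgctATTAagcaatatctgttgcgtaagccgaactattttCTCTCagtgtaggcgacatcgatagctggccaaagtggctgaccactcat
OdsH locus, intron of OdsH, chrX:17802803-17803003: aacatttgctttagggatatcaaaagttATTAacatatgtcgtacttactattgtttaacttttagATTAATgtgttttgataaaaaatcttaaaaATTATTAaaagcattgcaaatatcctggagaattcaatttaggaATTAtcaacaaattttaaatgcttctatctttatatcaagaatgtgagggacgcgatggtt

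TAAT occurred 7 times in the printed stretch at Pph13, 6 and 4 times in those at Drgx, 3 times at Vsx1 and 6 times at OdsH. None of the 5 held the longer homeodomain site TAATTA. The GAGA factor site occurred once in the Pph13 stretch, just beside the summit, and once in the Vsx1 stretch. TAAT was added to the motifs after the data had been seen, and over all 3822 thresholded peaks on the arms its median was 3 matches within 100 bp of the summit, against 4 over the 15 peaks here.

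All 9 genes had a thresholded peak within 20 kb, where 75.6% of all protein-coding genes did. The genes are long, with a median length of 18611 bp against 2164 bp over all protein-coding genes, so their windows are wider than those of most genes. The median number of peaks per gene was 1 at these genes and 2 over all genes. The merged windows span 414.1 kb and held 3.62 thresholded peaks per 100 kb, against 2.78 on the arms as a whole. Without peaks within 250 bp of a stronger one, the windows held 13 peaks rather than 15, and the arms 3685 rather than 3822. In the ranked list without a threshold the windows held 488 peaks, or 118 per 100 kb against 92.0 on the arms. In narrower windows 7 of the 9 genes had a peak within 10 kb (59.9% of all genes), 5 within 5 kb (46.2%) and 3 within 2 kb (33.3%), and all 9 had one within 50 kb (91.3%). At 2 kb the members' share was therefore the same as that of all genes.

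**Figure D1:**
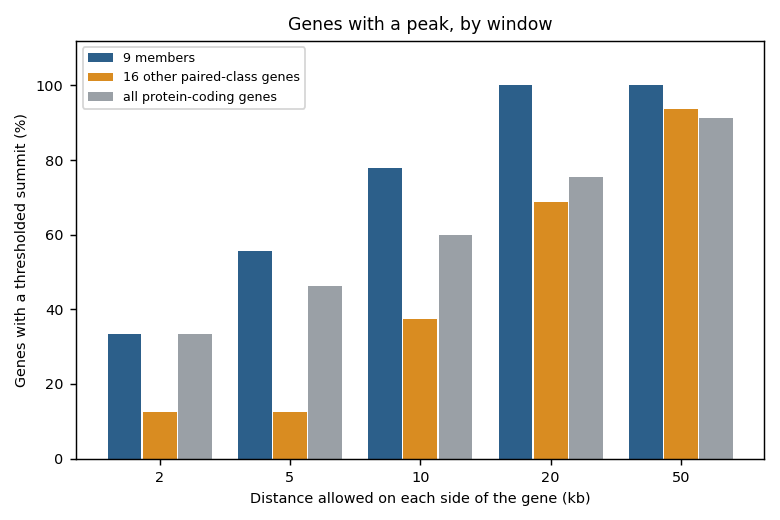
Share of genes (%) with a summit of the series' thresholded list inside the gene or within the distance on the x axis (kb on each side), for the 9 genes, for 16 other paired-class homeobox genes and for all protein-coding genes. The 9 genes go from 33.3% at 2 kb to 100% at 20 kb, and all protein-coding genes from 33.3% to 75.6%.

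Inside the genes themselves lay 3 of the 15 peaks. A summit lay inside 3 of the 9 genes, otp, Vsx1 and OdsH, where 10.6% of all protein-coding genes had one inside. Among genes of at least 10 kb, a limit chosen after the data had been seen, these 3 were 3 of 6 members, and 37.6% of all such genes had a summit inside. At the gene's own transcription start site (TSS), within 500 bp, a summit was found at 0 of the 9 genes and at 18.7% of all genes. OdsH was the 1 member of the 9 that held the TSS nearest to a thresholded summit, at a distance of 11893 bp, and 19.5% of all genes held the nearest TSS of some summit.

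The peaks that counted were mostly at the promoters or in the bodies of neighbouring genes. Of the 15 peaks, 6 lay within 500 bp of a TSS (40.0%, against 51.2% of all thresholded peaks), and all 6 of these starts belonged to genes outside the family. Introns held 3 of the 15 peaks (against 33.4% of all), intergenic sequence 3 (against 12.8%), coding sequence 2 (13.3%, against 1.28%) and a 3' UTR 1 (6.67%, against 0.837%). With 15 peaks a share rests on a few of them, and no difference from the whole list was tested.

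**Figure D2:**
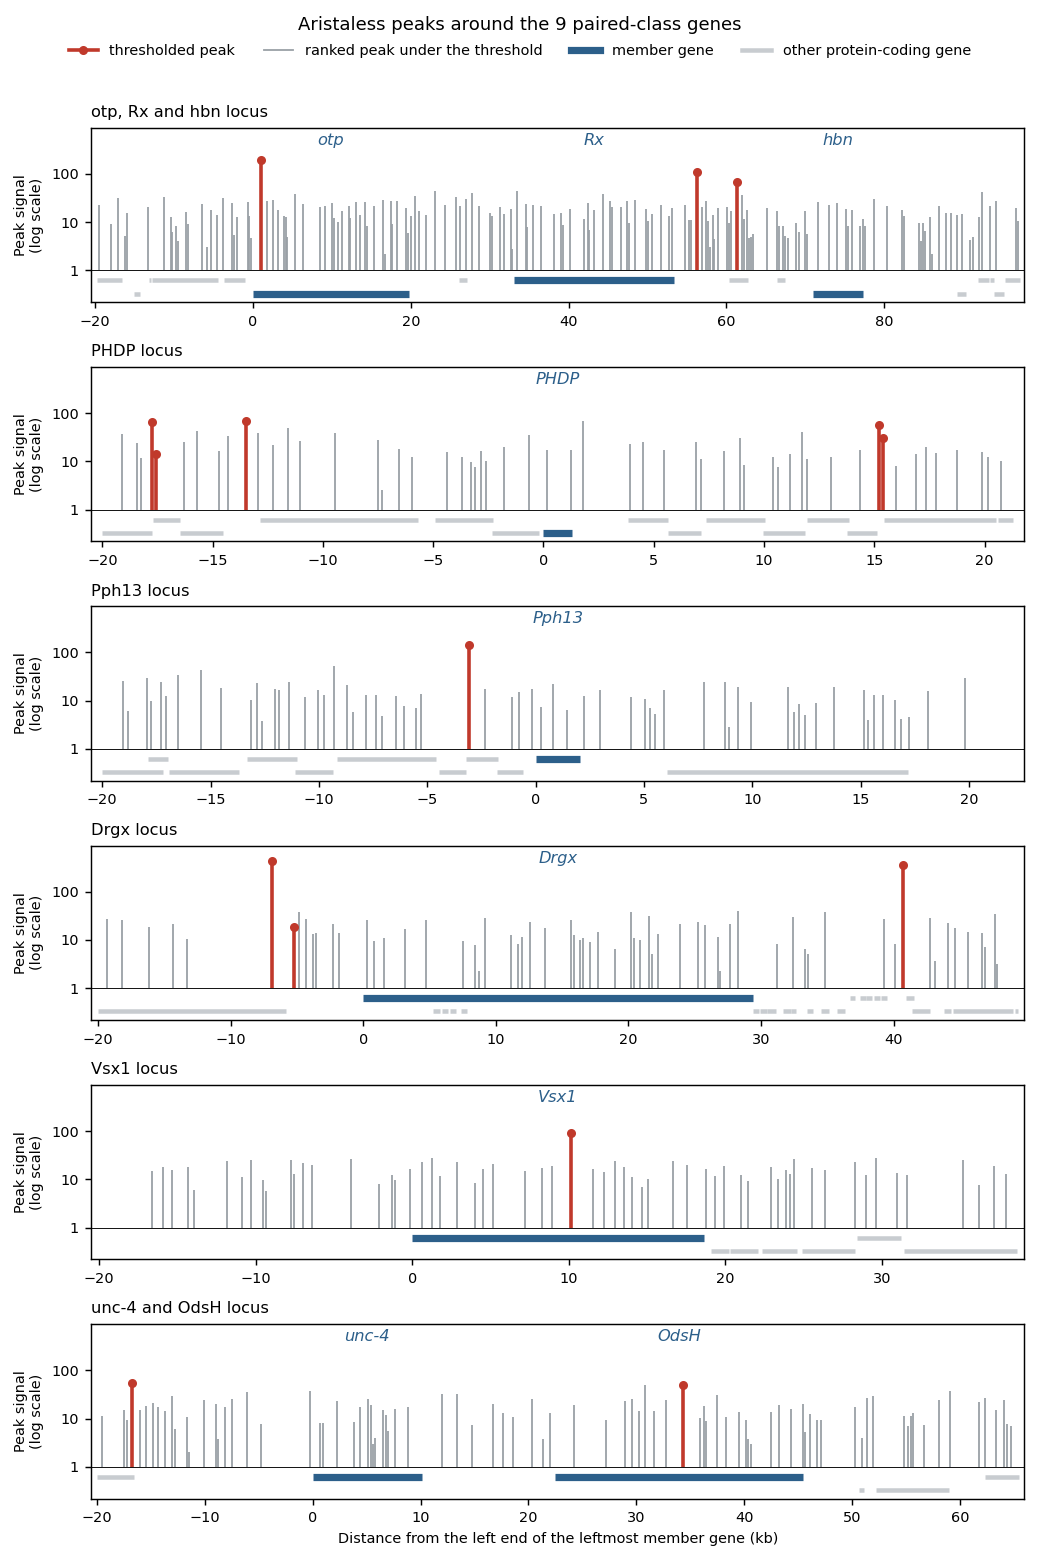
Signal of every peak of the series' ranked list (y axis, log scale) by distance from the left end of the leftmost of the 9 genes in each panel (x axis, kb), with thresholded peaks in red, others in grey and protein-coding genes as bars below, plus strand above minus strand. Red peaks stand inside otp, Vsx1 and OdsH and beside the other genes, and the strongest, with signals of 443 and 357, flank Drgx.

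The 2 strongest peaks flanked Drgx. The gene lies on 2L from 3662745 to 3692114, on the plus strand. The first peak (2L, 3655706 to 3655931) had a signal of 443 in the series' list, and of 258 in replicate 1 and 186 in replicate 2. It ranked 142 of 3822 and lay 6909 bp upstream of Drgx, in an intron of for, the gene for a cGMP-dependent protein kinase, 1117 bp from the nearest TSS of that gene. The other peak (2L, 3703348 to 3703544) had a signal of 357, with 170 in replicate 1 and 192 in replicate 2. It ranked 210, lay 11333 bp downstream of Drgx and stood 212 bp from the TSS of CG2816. Both peaks were in every thresholded list, with widths of 226 and 197 bp, where the other 13 peaks had the width of 330 bp. A further peak 5222 bp upstream of Drgx (2L, 3657358 to 3657687), 570 bp from the TSS of for, had a signal of 19.0 and a q value of 0.956. It overlapped a ranked peak of signal 33.5 in replicate 1 and none in replicate 2. No thresholded summit lay inside Drgx itself, in any of the lists, although the series' ranked list held 34 entries there.

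**Figure D3:**
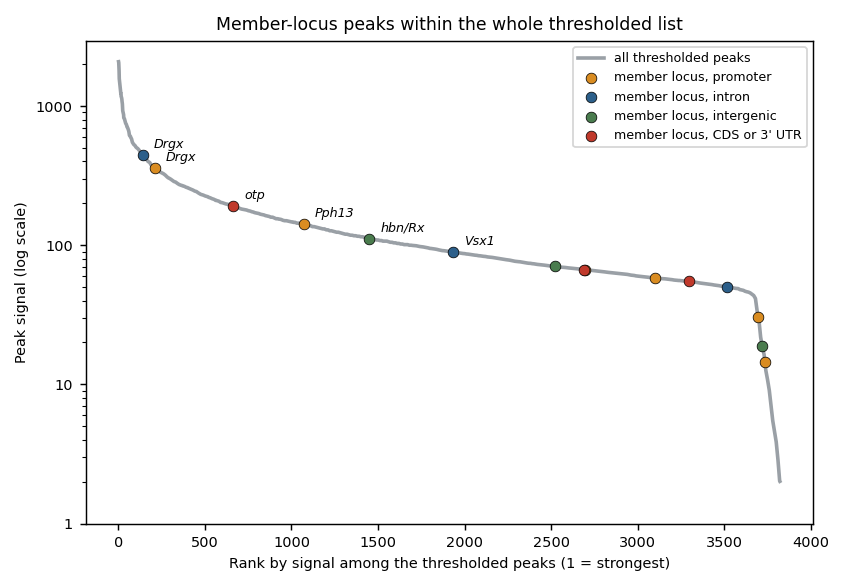
Signal (y axis, log scale) against rank by signal (x axis) for the 3822 thresholded peaks on the arms, grey line, with the 15 peaks at the 9 genes as points coloured by the class of the summit. The points spread over the whole range, from rank 142 at Drgx to rank 3737 at PHDP, and their median signal is 66.8, against 90.2 over all thresholded peaks.

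The genes otp, Rx and hbn form a cluster on 2R. From left to right, otp spans 20883625 to 20903414 on the minus strand, Rx 20916753 to 20937030 on the plus strand and hbn 20954668 to 20960909 on the minus strand. The gaps between them are 13.3 kb and 17.6 kb. The peak inside otp (2R, 20884430 to 20884759) had a signal of 192, with 113 in replicate 1 and 81.8 in replicate 2. It ranked 663 and was in both replicates' thresholded lists. Its summit lay in coding sequence of otp, 12989 bp from the nearest TSS of that gene and 4665 bp from that of Cib2. The GC content within 100 bp of this summit was 57.7%, against a median of 34.8% over all thresholded peaks, and no TAAT lay there.

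Rx and hbn shared 2 peaks in the gap between them, around Act57B, the gene for a muscle actin. The first (2R, 20939759 to 20940088) was intergenic, 2894 bp downstream of Rx and 14744 bp downstream of hbn. Its signal was 111, with 53.0 in replicate 1 and 54.5 in replicate 2. The peak passed into the thresholded list of replicate 2 alone. TAATTA covered its summit. The second (2R, 20944766 to 20945095) lay in coding sequence of Act57B, 910 bp from the TSS of that gene. Its signal was 66.8, with 42.4 in replicate 1 and 24.3 in replicate 2, and it was in the thresholded list of replicate 1 alone. So Rx and hbn had 1 peak in each replicate's own list, but not the same one. Like the otp peak, the Act57B peak was rich in GC (61.7%) and held no TAAT.

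PHDP, a short gene of 1305 bp on 2R (23883136 to 23884440, minus strand), had 5 peaks in the series' thresholded list, the most of the 9 genes there, all more than 13 kb away. These include overlapping peaks, and the count at PHDP was 1 in the conservative list, where Drgx, Rx and hbn had 2 each, 2 in replicate 1 and 3 in replicate 2. The strongest (2R, 23869476 to 23869805) had a signal of 70.4, with 55.9 in replicate 1 and 31.2 in replicate 2. It was intergenic, 632 bp upstream of the TSS of ken, a gene for a zinc finger transcription factor, and was in both replicates' lists. The other 4 stood in 2 pairs of overlapping peaks at promoters. At Cpes and CG5569 the signals were 66.7 and 14.5, and both overlapped the same peaks, of 22.6 in replicate 1 and 40.1 in replicate 2. At CG5339 and Lpt, the second coding for a subunit of a COMPASS-like complex, they were 58.1 and 30.4, over shared peaks of 19.0 in replicate 1 and 38.8 in replicate 2. In each pair replicate 2 had the higher signal and replicate 1 passed no threshold. The weaker peak of each pair lay within 250 bp of the stronger, with a q value of 0.934 at CG5569 and 0.968 at Lpt. The DRE (TATCGATA), a core promoter element, lay near the summits at Cpes and CG5339. Near the CG5339 summit, bases 44 to 53 from it also held 2 overlapping TAATTA sites. The same bases read as TAAT followed by ATTA after a 2-bp spacer, the 1 such dimer site among the 15 peaks.

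Pph13 (2L, 577486 to 579549, plus strand) lies 3.99 kb from Gsc, another paired-class gene, and 190 kb from al itself. Its 1 peak (2L, 574248 to 574577) had a signal of 141, with 81.9 in replicate 1 and 60.7 in replicate 2, and it was in every thresholded list. The summit lay 3073 bp upstream of Pph13 and 95 bp from the TSS of cold, a septate junction gene, so that Gsc counted the same peak.

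On X, Vsx1 spans 5594255 to 5612865 on the plus strand. Its intronic peak (X, 5604216 to 5604545) had a signal of 89.7, with 59.3 in replicate 1 and 30.9 in replicate 2. The peak was in the thresholded list of replicate 1 and not in that of replicate 2. It lay 10126 bp from the TSS of Vsx1 and 10086 bp from that of CG34435.

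The neighbours unc-4 (X, 17768569 to 17778708) and OdsH (X, 17791010 to 17814011) are both on the plus strand, 12.3 kb apart, and had the weakest of the leading peaks. The intronic peak of OdsH (X, 17802738 to 17803067) had a signal of 50.2, with 30.9 in replicate 1 and 20.4 in replicate 2. The peak at unc-4 (X, 17751703 to 17752032) had a signal of 55.0, with 30.3 in replicate 1 and 24.7 in replicate 2. It lay 16701 bp upstream of unc-4, in the 3' UTR of raskol, a gene for a Ras GTPase-activating protein. Neither peak was in a replicate's own thresholded list, and their q values were 0.231 at OdsH and 0.129 at unc-4. Both stood nearer to the limit of the list than the rest, with IDR values of 0.00653 at OdsH and 0.00586 at unc-4. Just outside the limit, a second intronic peak of OdsH (summit at 17799367) had a signal of 48.6, with 28.5 in replicate 1 and 20.3 in replicate 2, and an IDR of 0.0240.

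Both replicates' own thresholded lists held 5 of the 15 peaks, those at cold, for, CG2816 and ken and in otp. Replicate 1 alone held 2, replicate 2 alone held 5, and neither held 3. The 5 held by replicate 2 alone rest on 3 of its peaks, since each overlapping pair at PHDP lies over 1 of them. The same split is not given for all thresholded peaks, so these counts show nothing particular to the 9 genes. Each replicate's own list had 8 peaks at the 9 genes, of which 5 overlapped a peak of the other replicate's list. By gene, the replicate 1 list had a peak within 20 kb of 7 of the 9 genes (69.1% of all genes), the replicate 2 list of 6 (60.0%), and both lists of 6 (57.7%), which were all but Vsx1, OdsH and unc-4. With the demand that the peaks of the replicates overlap, 4 genes were left (56.2% of all genes), since Rx and hbn had different peaks in each list. The conservative list had peaks at 8 of the 9 genes (73.2% of all genes), the exception being OdsH. Of all 3822 thresholded peaks on the arms, 3814 overlapped a ranked peak of replicate 1 and 3719 one of replicate 2. Every one of the 15 peaks here overlapped one of replicate 1, and 14 one of replicate 2. These 14 lie over 12 distinct pairs of replicate peaks, each counted once here. The signal was lower in replicate 2 for 8 of the 12 pairs, or 66.7%, against 87.7% of the pairs under all thresholded peaks. The median log2 ratio of replicate 2 to replicate 1 was -0.45 over these pairs, against -0.60 over all, with a range of -0.94 to 1.03 at the 9 genes. The scaling of the signals is not known, so a ratio is not a ratio of bound protein.

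**Figure D4:**
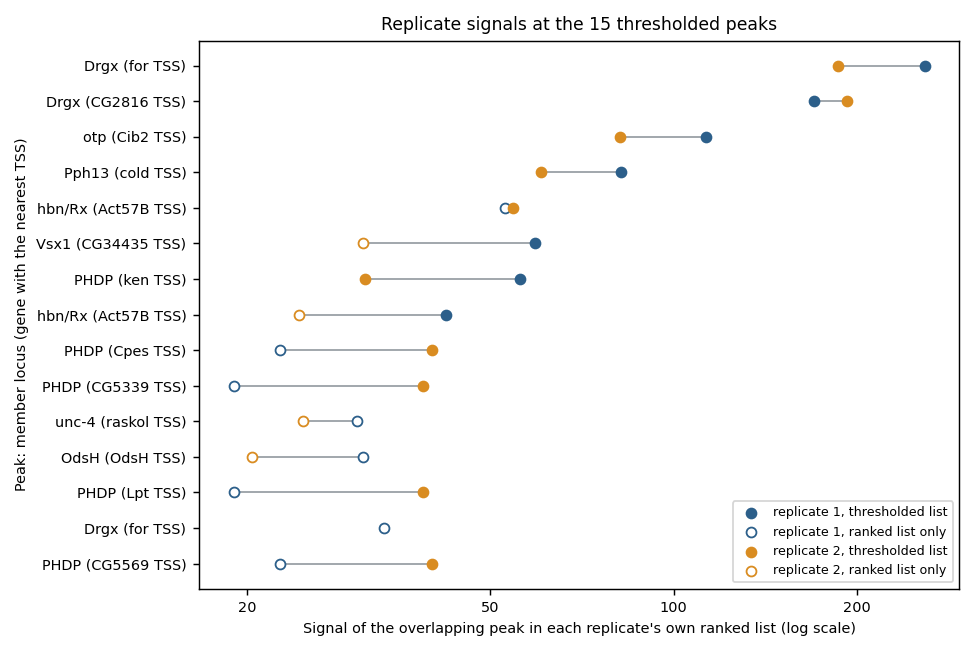
Signal of the overlapping peak in each replicate's own ranked list (x axis, log scale) for the 15 peaks, ordered by their signal in the series' list and named by locus and gene with the nearest TSS (y axis). Filled points overlap the thresholded list of that replicate and open points do not, and the 5 rows with both points filled are at Drgx (2 rows), otp, Pph13 and PHDP.

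At the members' own start sites no peak passed the IDR threshold of the series' list. In the series' ranked list all 9 genes had a peak within 500 bp of a TSS of their own, as 76.7% of all genes did, and 0 of these peaks overlapped a thresholded peak. In the ranked list of replicate 1 the count was 6 of 9 (60.8% of all genes), without hbn, OdsH and PHDP. In that of replicate 2 it was 7 of 9 (61.5%), without OdsH and Pph13, so that OdsH had such a peak in neither replicate. The strongest was at PHDP, 478 bp upstream of its TSS, with a signal of 67.9, above 97.8% of the ranked peaks. Its IDR was 0.540, with 52.8 in replicate 1, and 15.5 for the strongest replicate 2 peak within 500 bp. In replicate 1 this peak had its summit 509 bp from the TSS and did pass that replicate's own threshold. A thresholded peak thus lay beside the promoter of PHDP in 1 of 2 replicates, and replicate 2 had only ranked peaks there. The Rx peak 353 bp inside the gene had a signal of 44.8, with an IDR of 0.715 in the series' ranked list and 0.0172 in the conservative one. At unc-4 the peak 282 bp upstream of the TSS had a signal of 37.9, with 30.7 in replicate 1 and 6.88 in the overlapping peak of replicate 2. The remaining genes had signals between 11.7 at hbn and 26.0 at otp.

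**Figure D5:**
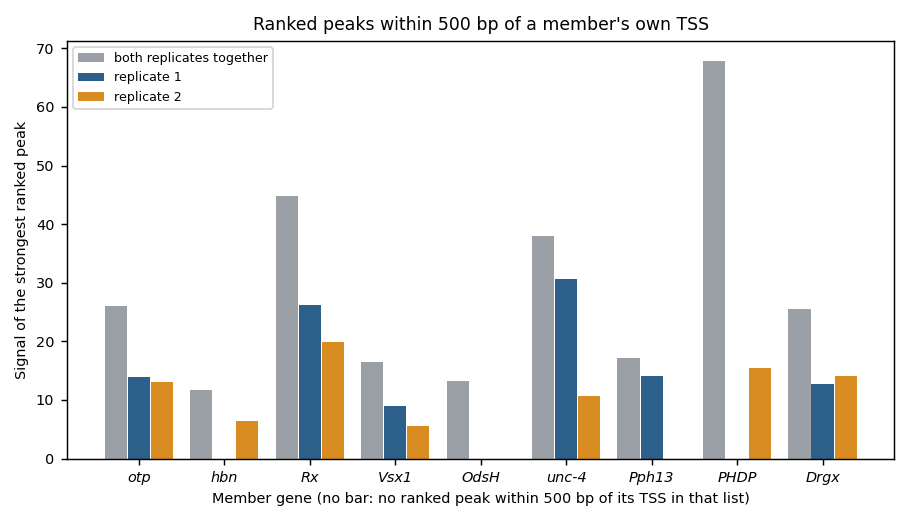
Signal (y axis) of the strongest ranked peak within 500 bp of a TSS of each of the 9 genes (x axis), in the series' ranked list and in each replicate's own. PHDP, Rx and unc-4 stand highest with 67.9, 44.8 and 37.9, and a bar is missing where a replicate's list had no such peak, in both replicates at OdsH, in replicate 1 at hbn and PHDP (summit 509 bp from the TSS) and in replicate 2 at Pph13.

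Among 15 summits, 3 had TAATTA within 100 bp (against 17.7% of all thresholded peaks), all of them on 2R, in the gap between Rx and hbn and at CG5569 and CG5339. The GAGA factor site lay at 5 (33.3%, against 20.7%), the DRE at 2 (13.3%, against 4.37%), the 2-bp dimer at 1 (6.67%, against 2.90%) and the 3-bp dimer at 0 (against 2.98%). The bases of that 2-bp dimer are those of the overlapping TAATTA sites at CG5339. TAATCC, which homeodomains of the Bicoid type are known to prefer, lay at 0 of the 15 and at 5.97% of all. TAAT itself lay at 13 (86.7%, against 91.8%), and the 2 summits without it were those in coding sequence of otp and Act57B. The median GC content was 37.8% at these peaks and 34.8% over all. At most 15 peaks stand behind each share, and some windows overlap, so these values describe the peaks and were not tested.

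Other paired-class genes were counted in the same way. Of 16 such genes, al among them, 11 had a thresholded peak within 20 kb (68.8%, against 75.6% of all protein-coding genes). Within 10 kb 6 did (37.5%, against 59.9%), and within 5 kb 2 did (12.5%, against 46.2%). A summit lay inside 0 of the 16 (10.6% of all genes), and inside 0 of the 8 of at least 10 kb (37.6% of all such genes). At its own promoter 1 of the 16, al, carried a summit (18.7% of all genes). It lay 303 bp from the TSS, with a signal of 50.6. Neither the conservative list nor the thresholded list of either replicate had a peak within 20 kb of al. The strongest peak at these 16 genes stood at repo (signal 546), followed by toy (366), prd (225), CG11294 (187) and toe (158). Gsc (141), CG32532 (122), eyg (104), CG9876 (67.6) and CG34367 (59.6) had weaker ones. These strongest peaks lay nearest to the TSS of genes outside the family, such as CG7988 at repo and PlexA at toy, with the exception of al. Ptx1, oc, gsb, gsb-n and ey had none. The difference between the 9 genes and these 16 was not tested, since the 9 were picked with earlier results known.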

How the data were processed

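ChIP-seq peaks of Aristaless fused to eGFP in whole embryos were analysed in 2 replicates of 1 group. The authors deposited thresholded and ranked peak lists, per replicate and for the series, on dm6 per the labels. For the caller, its version and any filter, nothing is given in the sources used here. In each list the authors give a signal value of unstated scaling, a −log10 q value, a −log10 global IDR (ranked lists) and a deposited score of at most 1000. Without read counts the depth is unknown, and no interval is given.

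Positions were set against the Ensembl release 115 annotation (BDGP 6.54) and the RefSeq release 6 sequence, which share the coordinates of dm6, and 0 peaks on the 7 arms ran past the end of their arm. A summit is the start plus the deposited offset. A replicate's value is the strongest overlapping peak (at least 1 bp) of its own ranked list. A thresholded list was paired with the ranked list that puts all of its peaks at a global IDR of 0.01 or less. Summits were classed as promoter within 500 bp of a TSS of a protein-coding transcript, otherwise by annotation. Within 100 bp of a summit both strands were searched for motifs. TAAT is contained in every other homeodomain motif searched. The window and motif functions were tested on simulated data. Python 3.11.15, numpy 2.4.6, pandas 2.3.3 and matplotlib 3.10.9 were used.

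The labels name a control library, which is not analysed here. The members and lists were chosen with earlier results of these data known. The genes named are the members, those with the TSS nearest to their peaks, and the other paired-class genes with or without a peak. A further gene of the family is not reported here.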

Additional observations from a re-analysis of the deposited data

How the results depend on the processing

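The count of genes with a peak within 20 kb kept within 1.5 times its main value with every other list and threshold, and it moved with narrower windows, to 5 at 5 kb and 3 at 2 kb, and to 1 (OdsH) when the nearest TSS had to belong to a member. The 15 peaks became 9 in the conservative list, 9 with a q of at most 0.05, 6 at a global IDR of 0.001 and 8 in each replicate's own list. Over the arms the 3822 peaks became 3473, 2880 and 2461, and the lists of replicates 1 and 2 held 2982 and 2090. A q above 0.05 was found at 40.0% of the 15 peaks and at 24.6% of all thresholded peaks. The 15 peaks at the 9 genes became 3, 5, 8 and 29 with windows of 2, 5, 10 and 50 kb, and 1 by nearest TSS. Genes with a peak inside numbered 2 without replicate 2 and 1, otp, without replicate 1. The share of all genes with a summit inside is not given for these smaller lists, so the drop shows nothing particular to the members. Peaks with TAATTA, 3 of 15 in the main list, were 1 of 9 in the conservative list (11.1%, against 17.8% of that whole list). They were 1 of 6 at the stricter IDR and 1 of 9 at a q of at most 0.05. The share over all peaks kept by these filters is not given. With windows of 5 and 10 kb they were 1 of 5 and 1 of 8. They were 0 of 3 with a window of 2 kb and 0 of 1 by nearest TSS. Without replicate 2 they were 0 of 8 (against 19.1% of that whole list), and without replicate 1 they were 2 of 8 (25.0%, against 18.1%). Within 250 bp of the summit they were 6 of 15, and the share over all peaks is not given for that distance. In all, 27 of 50 alternatives stayed within 1.5 times the main count. Fewer peaks or shorter windows enter each smaller count by construction. Signals have no known depth behind them, and no library of untagged embryos was analysed here. No paired analysis was possible because the 2 replicates form 1 group.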
